A study of Mus musculus with 11 samples.

Results

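The genes described here are 8 snoRNA host genes, Snhg1, Snhg3, Snhg5, Snhg6, Snhg8, Snhg11, Snhg12 and Gas5, out of 14602 genes counted in RPE/choroidal tissue, which holds the retinal pigment epithelium (RPE) and the vascular layer beneath it. They were selected on their symbols, with their measured counts in laser treated and naïve control samples already known, and all 8 were in the count table and passed the expression filter. The libraries came from C57BL/6J mice, 6 naïve controls and 5 given the 2RT nanosecond laser to one eye at 9 months of age, and both groups were collected at 12 months, 3 months after the laser. The laser was applied as separate spots around the optic nerve head, and the sample was not limited to the spots. RNA was pre-amplified with a SmartSeq v4 kit before library preparation, which starts from polyadenylated RNA, and between 25700881 and 38755994 reads were counted per library. The labels do not say whether a sample was 1 animal, and the p-values measure only the spread between these samples.

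A snoRNA host gene is transcribed, spliced and polyadenylated like a messenger RNA, but its introns carry small nucleolar RNAs (snoRNAs) that are trimmed out of the excised introns. Box C/D snoRNAs guide 2′-O-methylation of ribosomal RNA and box H/ACA snoRNAs guide its pseudouridylation. The spliced host transcript often has little coding potential, many hosts begin with the pyrimidine tract that is typical of ribosomal protein messages, and several, Gas5 among them, are degraded by nonsense-mediated decay while they are translated. Gas5 was first described as a transcript that accumulates in growth-arrested cells, and Snhg11 is known for its expression in neurons.

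The hosts lie on several chromosomes of GRCm38 and differ in the snoRNA genes they carry in the GENCODE M21 annotation. Gas5 (ENSMUSG00000053332, chr1:161034422-161038539, plus strand) holds 10 annotated snoRNA genes and Snhg1 (ENSMUSG00000108414, chr19:8723475-8726443, plus strand) holds 8. Snhg12 (ENSMUSG00000086290, chr4:132308623-132311024, plus strand) holds 5, of which 4 are named as box H/ACA and 1 as box C/D. These counts include overlapping entries of the same name, of Snora16a in Snhg12 and of Snord80 in Gas5. Snhg3 (ENSMUSG00000085241, chr4:132348014-132353686, minus strand) holds Snora73a and Snora73b, Snhg5 (ENSMUSG00000097195, chr9:88521050-88522929, minus strand) holds Snord50a and Snord50b, and Snhg11 (ENSMUSG00000044349, chr2:158375638-158386145, plus strand) holds 2 without a class in their names. Snhg6 (ENSMUSG00000098234, chr1:9941959-9944118, minus strand) holds Snord87 and Snhg8 (ENSMUSG00000104960, chr3:123507552-123508404, minus strand) holds Snora24. The annotation types 7 of the genes as processed transcripts or lincRNAs and Snhg11 as protein-coding. GC content of the longest transcript lay between 40.5% for Snhg1 and 47.6% for Snhg12, against a median of 49.8% over all genes with an annotation.

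The starts of these genes are shown because promoters of this class are known for a short pyrimidine tract at the first base. Each sequence runs from 45 bases before the start to 25 bases from it, in the direction of transcription, from RefSeq on GRCm38.p6, and the capitals mark 2 features that were chosen after the sequences had been seen. One is TATANA, read on either strand, between 45 and 15 bases before the start, and the other is a run of at least 4 C or T bases that reaches within 3 bases of the start. RefSeq entries were at hand for 7 of the 8 hosts, with 2 starts for Gas5.
Gas5 (chr1:161035121-161035190, plus): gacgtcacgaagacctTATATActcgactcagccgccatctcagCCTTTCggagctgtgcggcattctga
Snhg1 (chr19:8723442-8723511, plus): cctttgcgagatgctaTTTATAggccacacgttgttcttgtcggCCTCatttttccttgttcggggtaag
Snhg12 (chr4:132308633-132308702, plus): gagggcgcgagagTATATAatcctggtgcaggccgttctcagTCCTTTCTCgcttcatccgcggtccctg
Snhg8 (chr3:123508312-123508381, minus): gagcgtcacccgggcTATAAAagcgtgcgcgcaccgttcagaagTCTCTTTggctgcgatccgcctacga
Snhg5 (chr9:88522873-88522942, minus): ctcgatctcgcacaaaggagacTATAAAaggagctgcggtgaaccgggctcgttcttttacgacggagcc
Snhg3 (chr4:132353662-132353731, minus): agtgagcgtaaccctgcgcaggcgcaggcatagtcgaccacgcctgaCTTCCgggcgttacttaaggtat
Snhg11 (chr2:158375668-158375737, plus): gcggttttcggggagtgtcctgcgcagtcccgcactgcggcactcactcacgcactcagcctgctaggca

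The TATANA letters were found at 5 of the 8 starts and in 4.32% of all 32851 RefSeq promoters of the same window. The pyrimidine run was found at 5 of the 8 starts and in 36.1% of all promoters. Both features stood together at 4 starts, those of Snhg1, Snhg8, Snhg12 and the Gas5 start shown, and in 1.52% of all promoters. The Gas5 start that is not shown and the start of Snhg11 had neither in this window. These matches are a description of letters, not of factor binding.

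The snoRNAs themselves are shown for 3 hosts, from the GENCODE M21 transcripts on GRCm38. The reason is that box C/D and box H/ACA snoRNAs guide modification of ribosomal RNA. In the box C/D snoRNAs Snord47 and Snord87 the capitals mark box C (TGATGA) and box D (CTGA), which bind the core proteins. In the box H/ACA snoRNA Snora24 they mark the ACA box near the 3′ end.
Snord47 in Gas5 (chr1:161038082-161038158, plus): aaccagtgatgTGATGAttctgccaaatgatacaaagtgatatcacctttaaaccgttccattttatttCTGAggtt
Snord87 in Snhg6 (chr1:9942463-9942549, minus): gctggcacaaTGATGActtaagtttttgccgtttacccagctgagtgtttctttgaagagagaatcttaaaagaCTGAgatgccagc
Snora24 in Snhg8 (chr3:123507937-123508066, minus): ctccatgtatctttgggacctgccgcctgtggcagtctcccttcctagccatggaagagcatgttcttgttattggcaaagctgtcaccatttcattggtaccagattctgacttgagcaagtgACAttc

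Levels of different genes were compared per length, in TPM, that is counts divided by the total length of annotated exons and scaled to the same sum in every library. Gas5 was the highest host in both groups, at 87.4 ± 24.4 TPM in naïve controls (SD, n = 6) and 49.9 ± 8.8 in laser treated samples (SD, n = 5). In the naïve controls Snhg5 followed at 30.9 ± 21 TPM, and Snhg11 at 24 ± 15.2 and Snhg6 at 24 ± 10.6 TPM were level with each other. Snhg1 was at 10.9 ± 3.94, Snhg12 at 5.82 ± 4.06, Snhg8 at 5.48 ± 4.41 and Snhg3 at 3.65 ± 1.12 TPM (SD, n = 6). Gas5 exceeded Snhg5 in 6 of 6 naïve control libraries and Snhg6 exceeded Snhg1 in 6 of 6. The neighbours Snhg11 and Snhg6, and Snhg12 and Snhg8, did not differ beyond their spread, and the higher mean of each pair was the higher value in 2 of 6 libraries. In the laser treated libraries the order of the lower 4 hosts differed. Snhg8 at 5.6 ± 0.644 TPM (SD, n = 5) lay above Snhg1 at 3.28 ± 0.77, with ranges of 5.23 to 6.73 and 2.24 to 4.29 that did not overlap, and Snhg3 at 2.71 ± 1.09 and Snhg12 at 2.69 ± 1.31 followed, level with each other. The exon length includes exons of every annotated isoform, and a host that is mostly spliced to a short form is understated on this scale. Of the 986 annotated exon bases of Snhg3, 705 are shared with Gm17300 on the opposite strand and 135 with Rcc1. Its level and its place as the lowest host in naïve controls are therefore uncertain.

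**Figure D1:**
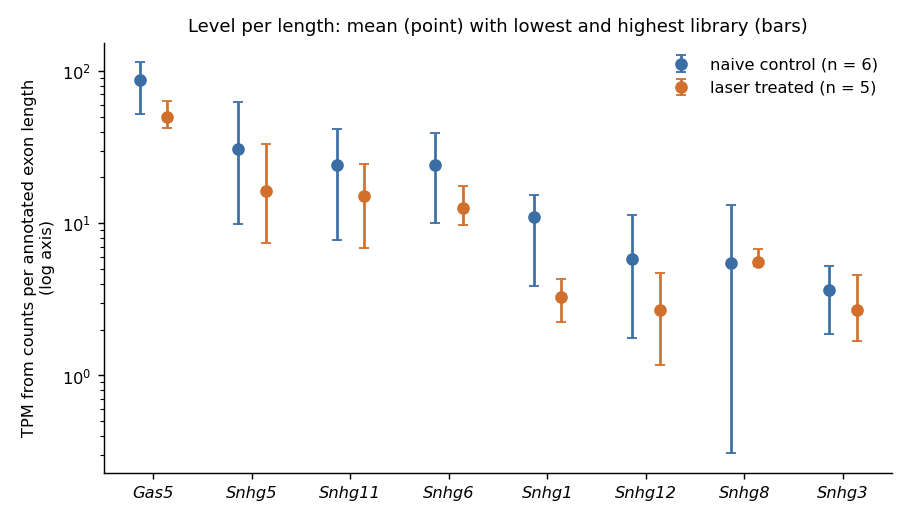
Level per length of the 8 host genes, as TPM computed from counts on a log axis. Points are group means and bars run from the lowest to the highest library, for naïve control (n = 6) and laser treated (n = 5) samples. Gas5 is highest in both groups, and the control bar of Snhg8 reaches down to 0.308 TPM.

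The comparison of laser treated with naïve control samples asks which transcripts of the RPE/choroid differ 3 months after the laser. The 8 hosts were picked with the results of this comparison known, so their values in it are a description and not a test. CPM below are counts relative to the library total after scaling by edgeR's TMM factors, and fold changes are on the log2 scale, laser treated relative to naïve control, with their standard error (SE). No host passed an adjusted p of 0.05 in edgeR's quasi-likelihood test, as for all 14602 genes, of which 0% passed. At an unadjusted p under 0.05, 3 hosts were lower after laser, against 7.68% of all genes that were lower at this level. All 8 had a log2 fold change below 0, as had 51.5% of all genes. The median over the hosts was -0.91 and over all genes -0.02. For none of the 8 did all laser treated libraries lie below all naïve controls, as they did for 0.863% of all genes. The tissue is bulk, so fewer cells of a type that expresses a host and less of its RNA per cell cannot be told apart.

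Snhg1 showed the largest difference among the hosts. Of its 8 annotated snoRNA genes, 1 is named as box C/D and 7 have no class in their names. The annotated exons of its isoforms together cover its whole span of 2969 bases, so introns of spliced forms are part of its exon length. In naïve control libraries Snhg1 ranged from 3.93 to 14.9 CPM with a median of 11.8. The laser treated libraries, replicates 1 to 5, held 3.92, 3.07, 4.05, 2.64 and 2.31 CPM. Naïve control replicate 6, at 3.93 CPM, lay within the laser treated range, and the other 5 naïve controls lay above every laser treated sample. Its log2 fold change was -1.78 (SE 0.35, unadjusted p = 0.000203, adjusted p = 0.172 in edgeR's quasi-likelihood test), the 11th smallest p of all genes. About 354 reads were counted per naïve control library on average and 109 per laser treated library.

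Gas5, the most abundant host, was lower after laser, with the smallest standard error of the hosts. The naïve controls ranged from 67.4 to 145 CPM with a median of 119. The laser treated libraries held 70.8, 54.2, 53.0, 48.7 and 83.6 CPM. Of these, 3 lay below the lowest naïve control, while 4 of 6 naïve controls lay above the highest laser treated sample. The log2 fold change of Gas5 was -0.86 (SE 0.22, unadjusted p = 0.00154, adjusted p = 0.172 in edgeR's quasi-likelihood test). In DESeq2, an alternative test, Gas5 passed with an adjusted p of 0.0152. That test called 502 of 14573 genes, where edgeR called 0. In DESeq2 Snhg1 had a smaller unadjusted p of 1.07e-06 but was given no adjusted p by the tool's filter on low counts. The adjusted p of Gas5 over all alternatives ran from 0.0152 to 0.674.

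Snhg6, the host of Snord87, was the third with an unadjusted p under 0.05. It ranged from 3.96 to 14.5 CPM in naïve controls, with a median of 9.81. The laser treated values were 4.99, 4.27, 3.54, 4.04 and 6.97 CPM, all below the naïve control median, and the groups overlapped at naïve control replicates 5 and 6. The log2 fold change of Snhg6 was -0.97 (SE 0.36, unadjusted p = 0.0188, adjusted p = 0.228 in edgeR's quasi-likelihood test).

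**Figure D2:**
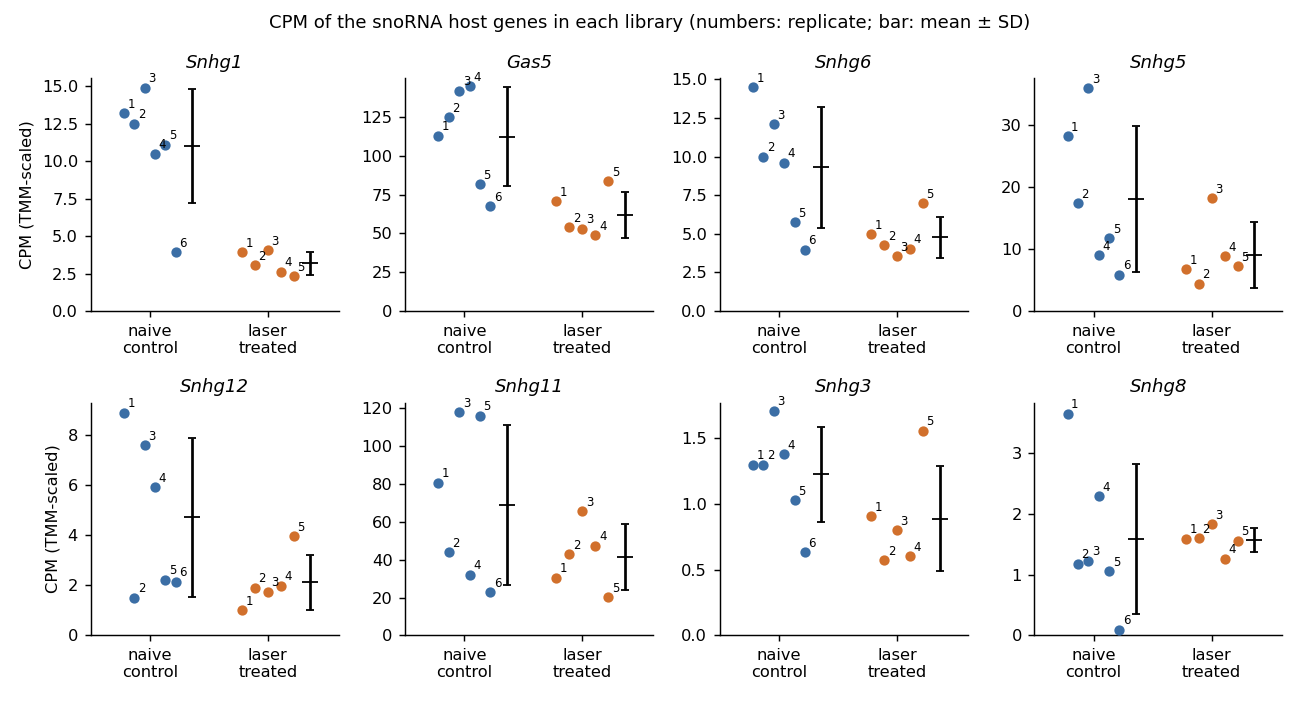
CPM of each host gene in each library, with the group on the horizontal axis and the replicate number beside each point; the black bar is the mean ± SD of the group (n = 6 naïve control, n = 5 laser treated). For Snhg1, 5 of 6 naïve controls stand above all laser treated samples, while for Snhg8 the laser treated samples sit inside the naïve control range.

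Snhg5 and Snhg12 had fold changes as large as Gas5 or larger, with wider errors. Snhg5, the host of Snord50a and Snord50b, ranged from 5.89 to 35.9 CPM in naïve controls, with a median of 14.6. Its laser treated values were 6.73, 4.4, 18.2, 8.83 and 7.21 CPM, of which 18.2 lay above the naïve control median. The log2 fold change of Snhg5 was -0.99 (SE 0.48, edgeR adjusted p = 0.334). Snhg12, which carries both box H/ACA and box C/D snoRNAs, ranged from 1.5 to 8.89 CPM in naïve controls, with a median of 4.07. Its laser treated values were 1.0, 1.9, 1.74, 1.98 and 3.97 CPM, and they overlapped the 3 lower naïve controls. The log2 fold change of Snhg12 was -1.15 (SE 0.58, edgeR adjusted p = 0.356).

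Snhg11, the neuronal host, ranged from 22.8 to 118 CPM in naïve controls, with a median of 62.3. Its laser treated values were 30.5, 43.0, 65.7, 47.4 and 20.2 CPM, largely inside the naïve control range. The log2 fold change of Snhg11 was -0.74 (SE 0.43, edgeR adjusted p = 0.442). Snhg3, which carries the long H/ACA RNAs Snora73a and Snora73b, ranged from 0.635 to 1.71 CPM in naïve controls, with a median of 1.3, from between 21 and 53 reads in each of the 11 libraries. Its laser treated values were 0.907, 0.571, 0.799, 0.602 and 1.56 CPM, and the log2 fold change was -0.46 (SE 0.65, edgeR adjusted p = 0.806). Snhg8, the host of Snora24, had a fold change near 0, at -0.01 (SE 0.75, edgeR adjusted p = 0.995). Its naïve controls ranged from 0.0907 to 3.65 CPM with a median of 1.2, and the lowest of these, replicate 6, rested on 3 reads. The laser treated libraries held 1.59, 1.6, 1.83, 1.26 and 1.56 CPM, a narrower range in the middle of the naïve controls.

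One naïve control library, replicate 6, was below its group's median for 8 of 8 hosts. The CPM of the 8 hosts summed to 106.9 there, the lowest of the 11 libraries, and to between 212.9 and 333.4 in the other naïve controls and between 113.0 and 148.9 in the laser treated samples. Without this library 6 hosts had an unadjusted p under 0.05 and the median log2 fold change was -1.06. Over all genes, 1412 of 14539 were lower at this level in that fit. Without naïve control replicate 1, in contrast, 2 hosts had an unadjusted p under 0.05, and 958 of 14506 genes were lower at this level.

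The header of the transcript files carries a label, R1 or R2, whose meaning is not given in the sources used here. R1 marks 3 naïve control and 2 laser treated libraries and R2 marks 3 of each. Differences of mean log2 CPM were therefore also taken within each label. Snhg1 was lower after laser in both, by a log2 difference of -1.94 in R1 and -1.38 in R2, and so was Gas5, at -1.02 and -0.63. Snhg6 differed by -1.38 and -0.37, Snhg12 by -1.72 and -0.34 and Snhg11 by -1.04 and -0.14. Snhg5 was lower in R1, at -2.24, and higher in R2, at 0.30. Snhg8 likewise changed sign, from -0.13 to 1.12, and Snhg3 was at -0.93 and -0.08. The median over the hosts was -1.21 in R1 and -0.24 in R2, and the difference between the labels was not tested.

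Base composition separated the groups across all genes. The slope of a library's log2 CPM on GC content, relative to the mean of all libraries, was between -0.358 and -0.009 per 10 percentage points of GC in naïve controls and between 0.011 and 0.272 in laser treated libraries. Genes of low GC content were thus relatively lower in laser treated libraries in general. When each library's GC trend was removed, the log2 fold change of Snhg1 was -1.39 (SE 0.33) and that of Gas5 was -0.54 (SE 0.20). These 2 hosts kept an unadjusted p under 0.05, with an adjusted p of 0.674 each in edgeR's quasi-likelihood test. Over all genes, 484 of 14602 were lower at that unadjusted level in this fit. Snhg6 then stood at -0.61, Snhg5 at -0.72, Snhg12 at -1.02, Snhg11 at -0.44 and Snhg3 at -0.16, while Snhg8 turned to 0.22. The median over the hosts was -0.58, and that over all genes 0.04. The origin of the GC slope was not tested.

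**Figure D3:**
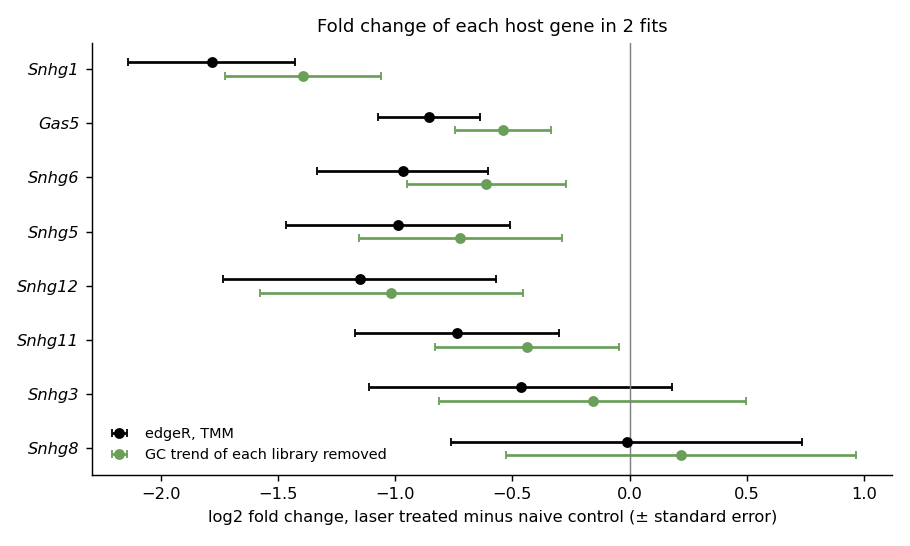
Log2 fold change, laser treated minus naïve control, of each host with its standard error, in the edgeR comparison (black) and after each library's GC trend was removed (green). Removing the trend moves every host to the right, to -1.39 for Snhg1 and to 0.22 for Snhg8.

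Within groups most pairs of hosts were positively correlated. Over deviations of log2 CPM from the group means in 11 libraries, 27 of 28 pairs of hosts had a positive Pearson r, with a median of 0.53 and a range from -0.09 to 0.90. The highest was between Snhg3 and Gas5, followed by Snhg6 and Gas5 at 0.86. Snhg11 with Gas5 gave the lowest. These values are descriptive, since the pairs share libraries, and replicate 6 of the naïve controls was low for every host. The same values were not taken over pairs of other genes, so they cannot show whether hosts differ from them.

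These deviations do not hold the laser comparison, and they were tested against 3 measures of each library, which makes 24 relations adjusted together. The first measure was the mean z-score of 84 cytosolic ribosomal protein genes. The messages of these genes typically begin with a pyrimidine tract, and their introns carry many snoRNAs. The share of all genes related to this score, or to the other measures, was not computed. Of the hosts, 4 were related to the score by Pearson's r. Snhg3 followed it most closely (r = 0.91, permutation p = 0.0014, adjusted p = 0.0084; Spearman's rho = 0.91, permutation p = 0.00078, adjusted p = 0.0126). Gas5 was next (r = 0.85, permutation p = 0.00059, adjusted p = 0.00708; rho = 0.87, permutation p = 0.00105, adjusted p = 0.0126). For Snhg6 r was 0.79 (permutation p = 0.00126, adjusted p = 0.0084; rho = 0.80, permutation p = 0.00361, adjusted p = 0.0217). Snhg8 passed by r (0.55, permutation p = 0.00531, adjusted p = 0.0255) but not by rank (rho = 0.54, permutation p = 0.0888, adjusted p = 0.194). Without the 2 libraries farthest from the median score, naïve control replicate 6 and laser treated replicate 5, r was 0.80 for Snhg3, 0.82 for Gas5, 0.72 for Snhg6 and 0.74 for Snhg8. With any 1 library left out, Snhg3, Gas5 and Snhg6 passed in 11 of 11 cases and Snhg8 in 4, and without naïve control replicate 6 Snhg8 had an adjusted p of 0.279. Snhg1, which had the largest laser difference, was not shown to follow the ribosomal protein score (r = 0.29, permutation p = 0.323, adjusted p = 0.439; rho = 0.26, permutation p = 0.452). That r ran from -0.27 without naïve control replicate 6 to 0.77 without laser treated replicate 5.

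The second measure was the mean z-score of 10 neural retina markers, photoreceptor genes whose RNA can be carried over when the retina is peeled from the RPE. Snhg5 was related to it (r = 0.84, permutation p = 0.00054, adjusted p = 0.00708; rho = 0.75, permutation p = 0.0111, adjusted p = 0.0534), with an r of 0.88 without its 2 farthest libraries. Snhg11 passed by rank (rho = 0.81, permutation p = 0.00191, adjusted p = 0.0153) but not by r (0.72, permutation p = 0.0164, adjusted p = 0.0658), with an r of 0.67 without the 2 farthest libraries. Gas5 gave an r of -0.04 (permutation p = 0.902, adjusted p = 0.902; rho = -0.18, permutation p = 0.607). The third measure was the GC slope, where every host had a negative r, from -0.65 for Snhg3 to -0.22 for Snhg12, and none passed, with adjusted p of 0.163 or above. When the label was added to the group in the centring, 0 of 24 relations passed in an exact permutation test with 432 permutations. The smallest p that this test can give is 0.00231, so 1 relation alone could not pass the adjustment over 24 relations. There r was 0.93 for Snhg3, 0.88 for Snhg6 and 0.86 for Gas5 with the ribosomal protein score (exact permutation adjusted p = 0.0694, 0.0694 and 0.0778), 0.76 for Snhg11 and 0.68 for Snhg5 with the neural retina score (exact permutation adjusted p = 0.0694 and 0.283).

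**Figure D4:**
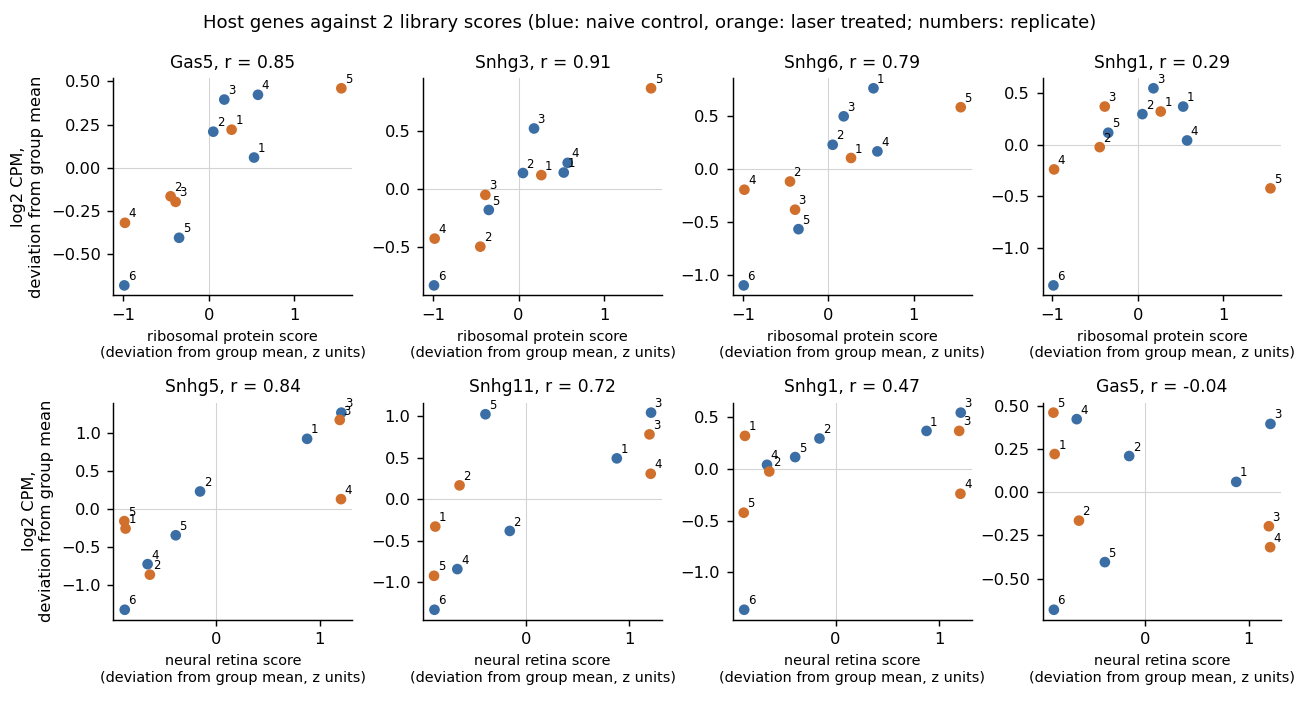
Deviation of log2 CPM from the group mean for the host named above each panel (vertical axis). The horizontal axis is the deviation of the ribosomal protein score (upper row) or the neural retina score (lower row), in z units. Each point is a library, blue for naïve control and orange for laser treated, with its replicate number. Gas5, Snhg3 and Snhg6 rise with the ribosomal protein score and Snhg5 and Snhg11 with the neural retina score, whereas for Snhg1 r is 0.29 and 0.47.

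The genes whose within-group pattern was most like each host, among those with a mean count of at least 100, were taken by Pearson's r over the 11 libraries. For Snhg3 they were 1810006K21Rik, Dpy30 (a subunit of histone methyltransferase complexes) and Minos1 (a component of the mitochondrial cristae organising complex), at r = 0.97 each. For Gas5 they were Psmg4 (a proteasome assembly chaperone) and 2310009B15Rik at 0.96 and 2310003F16Rik at 0.94, and for Snhg6 2010003O02Rik, Sec62 (a part of the endoplasmic reticulum translocon) and Hsbp1 at 0.93. Snhg11 went most closely with Trnp1 at 0.96, Scgn (secretagogin, a calcium-binding protein of neurons) at 0.95 and Tox2 at 0.94. Snhg5 went with BC033916, Hmgn1 (a nucleosome-binding protein) and 5730455P16Rik at 0.96. Snhg1 went with Cyp4f41-ps, Fahd1 and Mbd5 at 0.93, Snhg8 with Gng4 at 0.91 and Tcf4 and Atxn7l3 at 0.90, and Snhg12 with Zcchc6 at 0.94, Hunk at 0.91 and Ccdc34 at 0.87. For each host these are the 3 highest of 11713 values, or of 11714 for Snhg3 and Snhg8, and they are given as a description.

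The other noncoding snoRNA hosts of the table did not share a direction. Snhg10 and Rian were lower after laser, at log2 fold changes of -0.62 and -0.81, and Snhg7 and Snhg9 were higher, at 0.66 and 0.12, and 0 of 4 had an unadjusted p under 0.05. Of 214 protein-coding genes with a snoRNA gene inside, 131 were lower, with a median of -0.11, and 33 of them were lower and 12 higher at an unadjusted p under 0.05, where 7.68% of all genes were lower and 8.24% higher. They included Eif5, a translation initiation factor, at -0.47, Uchl5, a deubiquitinase, at -0.49 and Ddx39b, an RNA helicase of splicing and export, at 0.51. Without those that encode ribosomal proteins, 103 of 184 were lower, with a median of -0.06. The cytosolic ribosomal protein list held 84 genes, of which 78 had a log2 fold change below 0; its median was -0.35, and 22 genes were lower at an unadjusted p under 0.05, among them Rps24 at -0.78, Rpl5 at -0.61 and Rps6 at -0.46. None of the genes in these lists passed an adjusted p of 0.05 in edgeR.

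Proteins bind, assemble and decay the products of these genes, and only the RNA of those proteins was measured here. Its log2 fold changes went in both directions, where 51.5% of all genes were below 0. Of the 4 box C/D core protein genes counted, 3 were lower, with Nop58 at -0.35. Nop56 was higher at 0.41 (unadjusted p = 0.0486, edgeR quasi-likelihood test). Of 4 box H/ACA core protein genes 3 were lower. Gar1, at -0.67 (unadjusted p = 0.0319, edgeR quasi-likelihood test), was the one with an unadjusted p under 0.05. Of 9 snoRNP assembly genes 4 were lower. Among them Nufip1, which recruits the assembly machinery to box C/D particles, was at -0.89 (unadjusted p = 0.0178, edgeR quasi-likelihood test). In nonsense-mediated decay, the pathway that removes several host transcripts, 5 of 8 genes were lower. Upf3b, which links the exon junction complex to this decay, was at 117 ± 36.9 CPM in naïve controls (SD, n = 6) and 54.7 ± 19.2 in laser treated samples (SD, n = 5), a log2 fold change of -1.10 (SE 0.26, adjusted p = 0.172, edgeR). Upf1, its central helicase, was at 0.59 (SE 0.23, adjusted p = 0.25, edgeR). Of 6 genes of debranching and decay enzymes 4 were lower. Exosc10, which encodes the nuclear exosome nuclease that trims snoRNA ends, was at 0.50 (unadjusted p = 0.00775, edgeR quasi-likelihood test). No gene of these 5 lists passed after adjustment over all genes.

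The tissue label was borne out by its markers, since the 8 RPE markers summed to between 92500 and 128000 CPM in naïve controls and between 74400 and 123000 in laser treated samples. After laser 6 of these 8 were lower and 2 higher (median log2 fold change -0.12), and 0 had an unadjusted p under 0.05 in edgeR's quasi-likelihood test. RNA of other cells was present too. None of their markers passed an adjusted p of 0.05 in edgeR, and the summed levels of every list overlapped between the groups. The 10 neural retina markers summed to 6200 to 25100 CPM in naïve controls and 4130 to 19200 after laser, and 9 of 10 were lower. The 8 neuronal markers summed to 282 to 1430 and 227 to 750 CPM, and 8 of 8 were lower, as was Snhg11. The 3 Schwann cell markers in the table summed to 125 to 380 and 285 to 968 CPM, and 3 of 3 were higher, each with an unadjusted p under 0.05. Of the neural retina, neuronal and melanocyte markers 1 each was lower at this level. Of the other lists, blood had 3 of 3 markers lower (median log2 fold change -0.86), skeletal muscle 4 of 4 higher (0.49), endothelium 5 of 6 higher (0.26), fibroblasts 4 of 6 higher (0.39), macrophages 3 of 4 higher (0.19) and melanocytes 2 of 4 higher (-0.04). The part of these cells in the laser difference of Snhg5, Snhg11 and the other hosts was not tested.

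The transcripts that the authors assembled for each library with StringTie, all of 1 exon, gave a further view of the hosts. A fragment that ends at the 3′ end of Snhg1 was listed in 5 of 6 naïve control and 2 of 5 laser treated libraries. It stood at 24.9, 21.8, 24.5, 19.7 and 7.37 TPM in naïve control replicates 1, 2, 3, 4 and 6, and at 5.78 and 0.767 TPM in laser treated replicates 1 and 4. These reads overlap those of the count table, so the fragment is not independent of the values above. For Snhg8, the one host named in these files, TPM was 1.37 ± 1.08 in naïve controls (SD, n = 6) and 1.38 ± 0.223 after laser (SD, n = 5). These lie below the 5.48 and 5.6 TPM obtained from its counts, and the 2 TPM scales are not compared here. Gas5, which had the highest count of the hosts, had fragments in 4 of 11 libraries that summed to at most 2.15 TPM. Its annotated transcripts have up to 12 exons, and a spliced transcript would not be listed among transcripts of 1 exon. How well Gas5 was assembled therefore cannot be read from these values.

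Snhg3 combined few counts with a highly covered fragment. In every library an assembled fragment lay over an exon of this gene, within chr4:132351935-132352740, at a coverage of 84.9 to 448 reads per base, while the count table gave the whole gene 21 to 53 reads. Per read counted, the fragments of Snhg3 held a median of 1980 bases of coverage, against 130 for Snhg5, 124 for Snhg11 and 91.1 for Snhg8. The region is also covered by an exon of Gm17300, a lincRNA on the opposite strand that shares 705 exon bases with Snhg3. Gm17300 is not a row of the count table. Depending on the library, the fragments were placed on the plus strand, on the minus strand or on both strands. Snhg3 shares another 135 exon bases with Rcc1 on its own strand. The summed TPM of the fragments was 35.4 to 113 in naïve controls, with a median of 54.6, and 25.2 to 47.6 after laser, with a median of 38.1, and the groups overlapped. Without stranded counting, reads of Snhg3 and Gm17300 cannot be told apart. Snhg6 overlaps Mcmdc2 by 127 exon bases on the opposite strand, and Gas5 overlaps Zbtb37 (log2 fold change 0.07) without sharing exon bases.

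**Figure D5:**
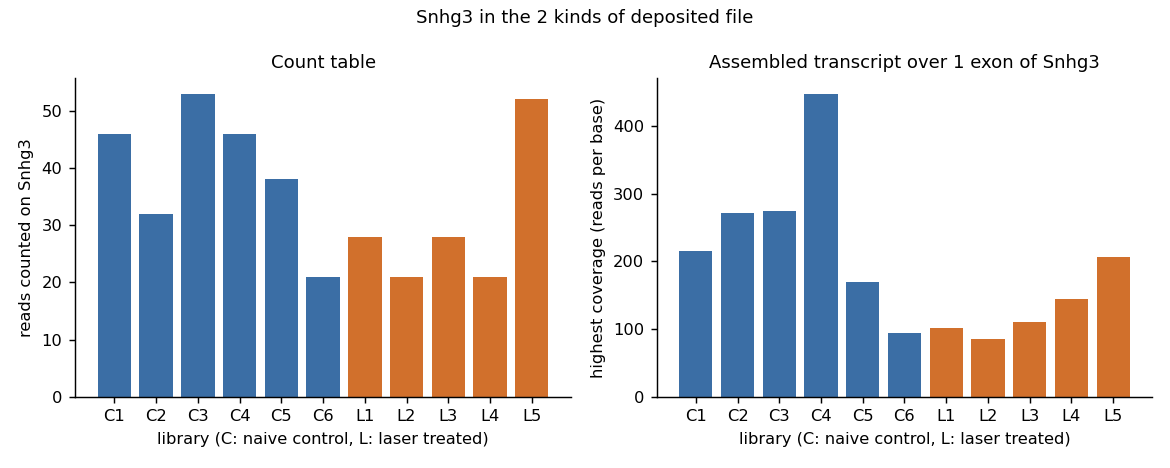
Reads counted on Snhg3 in the count table (left) and the highest coverage of an assembled transcript over 1 of its exons (right, reads per base), for 6 naïve control (C, blue) and 5 laser treated (L, orange) libraries. Counts stay between 21 and 53 while coverage reaches 84.9 to 448.

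Some snoRNAs carried by the hosts were listed as assembled transcripts, although a library primed on polyadenylated RNA does not measure mature snoRNAs. Snord47 of Gas5, shown above, was listed in 9 of 11 libraries, at 1.21 to 6.72 TPM in naïve controls and 1.32 to 4.07 after laser. Snord87 of Snhg6 was listed in 8, at 0.183 to 6.15 and 2.06 to 2.93 TPM, and Snord22 of Snhg1 in 8, at 0.212 to 2.43 and 1.17 to 2.22 TPM. Snora73a of Snhg3 was listed in 10, at 0.54 to 12.3 and 0.0857 to 1.04 TPM, and Snora73b in 9, at 0.165 to 27.2 and 0.039 to 33.3 TPM. Snora16a of Snhg12 was listed in 3 naïve control libraries, at 0.208 to 1.5 TPM, and Snora24 of Snhg8 in 2 laser treated libraries, at 0.0665 and 0.0959 TPM. The ranges of the groups overlapped for each snoRNA listed in both groups except those of Snora44, which had 1 library in each, and a library without an entry may hold reads below the assembler's limits.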

How the data were processed

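RPE/choroidal RNA was sequenced in 6 naïve control and 5 laser treated samples. The authors deposited raw read counts for 14602 genes. The submitters' processing notes name bcl2fastq 2.18.0.12, Trim Galore, STAR 2.5.3a, featureCounts 1.5.3, StringTie 1.3.3 and edgeR 3.22.3, and the builds mm10 and GRCm38; whether counting used strand is not given in the sources used here. The table also holds the authors' own fold changes, F statistics, p-values and FDR, which were not used. The authors also deposited transcripts assembled per library, with coverage, FPKM and TPM.

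Counts were compared with edgeR 4.0.16 in R 4.3.3 (TMM, filterByExpr, which removed 0 genes, robust quasi-likelihood fit, Benjamini-Hochberg adjustment over all genes, threshold 0.05). The common biological coefficient of variation was 0.58. Totals of 25700881 to 38755994 reads set the counting precision, and the SE covers the spread between samples. Alternatives used DESeq2 1.42.0, limma 3.58.1 (voom), upper quartile scaling, a minimum of 10 counts, no filter, no robust estimation, removal of a GC or length trend (loess, span 0.3), the label or replicate number as a term, and each library left out. Values within labels were added after the data were seen. Relations used deviations from group means, 100000 permutations within groups, two-sided, and Benjamini-Hochberg adjustment over 24 relations. The smallest p they can give is 1e-05, or 0.00231 in the exact test with the label added to the centring. Relations and tables were computed in Python 3.11.15 (scipy 1.17.1, numpy 2.4.6, pandas 2.3.3). The methods were tested on simulated data.

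Positions, exon length and GC content (longest transcript) came from GENCODE M21 on GRCm38, matched for 97.6% of genes, and 351 genes were not matched. The hosts and lists were chosen with earlier results of these data known. Genes named beyond the hosts were the other noncoding snoRNA hosts, up to 3 genes of each list with the smallest p, the 3 genes most like each host, genes overlapping a host and snoRNAs inside one.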

Additional observations from a re-analysis of the deposited data

How the results depend on the processing

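Across the alternatives 0 hosts had an adjusted p under 0.05, except with DESeq2, where Gas5 made it 1 and 6 hosts, Snhg1 with an unadjusted p of 1.07e-06 among them, were given no adjusted p by its filter. The number with an unadjusted p under 0.05 was 3. It was 2 with the GC trend removed and 5 with DESeq2. It was also 5 with a minimum of 10 counts in every library, where Snhg8 was not tested. Under the others it was 3, apart from the replicate block given below, and leaving out 1 library gave 2 to 6. Genes lower at this level were 1122 of 14602 in the edgeR comparison and 484 of 14602 with the GC trend removed. They were 1257 of 14573 with DESeq2 and 1153 of 11901 with a minimum of 10 counts. The number lower after laser was 6 to 8 and the median log2 fold change -1.21 to -0.24, the latter value within label R2; with 1 library left out the median was -1.06 to -0.74. Over all genes, DESeq2 called 502 of 14573, a minimum of 10 counts 2 of 11901 and voom 1 of 14602. The fit without laser treated replicate 2 called 4 of 14602, against 0 in the edgeR comparison.

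Snhg8 turned positive with voom (0.46), with the GC trend (0.22) or length trend (0.43) removed, with the GC trend removed and the replicate block (0.13), with the label as covariate (0.10), within label R2 (1.12), and without naïve control replicates 1 (0.42) or 4 (0.11) or laser treated replicate 4 (0.04); with 1 library left out it ran from -0.28 to 0.42. Snhg5 was at 0.30 within label R2. The cause was not tested. Of the 24 relations 5 passed, 8 without centring on group means, 0 with the label added to the centring, and 4 to 7 with 1 library left out. With the label added, the exact permutation test's smallest p of 0.00231 kept 1 relation alone from passing. Transcript TPM as an alternative level was possible for Snhg8 only.

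With the replicate number as a block 4 hosts had an unadjusted p under 0.05, 0 an adjusted one, and the median was -1.05. Over all genes, 1283 of 14602 were lower at an unadjusted p under 0.05 in that fit. The numbers were not shown to pair samples, since same-numbered libraries correlated at -0.00925, 0.115, 0.28, -0.00936 and -0.00844, and 4 of 10 correlated best with their own number. Low counts limit Snhg3 and Snhg8. None of 22 groups of values held a library beyond Dixon's limit.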
